A study of Arabidopsis thaliana with 12 samples.

Results

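SARD1 (AT1G73805), CBP60G (AT5G26920) and CBP60A (AT5G62570) are 3 members of the plant-specific CBP60 family of DNA-binding proteins, and all of them act on ICS1, the gene for the isochorismate synthase that makes most of the salicylic acid of an infected Arabidopsis leaf. They were taken by identifier, 3 of the 32678 genes in the deposited count table, and were followed in all 12 libraries. The libraries hold poly(A) RNA from leaves of 4-week-old soil-grown plants, 4 h after the leaves were infiltrated with Pst AvrRps4 at an OD600 of 0.005. Pst is the leaf pathogen Pseudomonas syringae pv. tomato, here a strain that injects AvrRps4, a protein recognised by pairs of TIR-type immune receptors of the plant. Every group received the bacteria, and mock-treated leaves were not used here, so no value below measures induction by infection. The 4 genotypes had 3 libraries each, and each library was made from a pool of 4 plants. Col-0 is the wild-type accession. The mutant eds1-2 lacks function of EDS1, the lipase-like hub through which TIR-type immune receptors signal. The line w.tEDS1, which the series' design text calls cEDS1(wt), carries wild-type EDS1, and R493A carries an EDS1 variant with 1 arginine exchanged for alanine. The labels give neither the promoter, background and number of independent lines behind w.tEDS1 and R493A, nor whether the 3 pools of a genotype were grown separately, so p-values measure the spread between these pools.

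In an infected leaf, SARD1 and CBP60G enter the promoter of ICS1 at the element GAAATTT and activate it. They do the same at genes for the immune signal N-hydroxypipecolic acid. Loss of both removes most pathogen-induced salicylic acid, while loss of one is largely covered by the other. CBP60G needs to bind calmodulin, the calcium sensor, for its function in defence, whereas SARD1 does not bind it. CBP60A binds calmodulin too, but acts as a negative regulator of ICS1 and of salicylic acid accumulation.

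The stretches upstream of these genes are shown because they hold matches to the short motifs of factor families known to act on these genes. They were read from the TAIR10.1 RefSeq assembly and run 5′ to 3′ on the strand of the gene, and capitals mark matches on either strand. For SARD1 (chr1:27749249-27749498, minus strand), the 250 bases before the start hold TTGAC 4 times, the core of the W box bound by WRKY factors, TGACG 3 times, the core bound by TGA factors, and ACGCG once, the core bound by CAMTA factors.
SARD1: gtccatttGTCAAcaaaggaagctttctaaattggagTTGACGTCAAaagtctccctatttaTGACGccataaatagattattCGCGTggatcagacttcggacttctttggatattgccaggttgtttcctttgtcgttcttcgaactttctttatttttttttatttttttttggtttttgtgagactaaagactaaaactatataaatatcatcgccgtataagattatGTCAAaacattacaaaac
The 2 cores overlap in the run TTGACGTCAA, which begins 213 bases before the start and holds both of them on both strands. For CBP60G, the 250 bases before the start held none of the 4 motifs searched, and all of its matches within 1000 bases lie in one cluster further up (chr5:9474679-9474828, plus strand), with TTGAC 4 times, TGACG once and ACGCG on both strands of a single ACGCGT.
CBP60G upstream cluster: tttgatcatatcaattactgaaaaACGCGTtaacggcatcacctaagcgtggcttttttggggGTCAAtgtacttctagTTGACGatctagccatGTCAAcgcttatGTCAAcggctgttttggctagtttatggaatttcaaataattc
The element that SARD1 and CBP60G bind, GAAATTT, occurs in the 250 bases before ICS1 (chr1:28070045-28070294, plus strand) at 129 and 96 bases from the start, on opposite strands.
ICS1: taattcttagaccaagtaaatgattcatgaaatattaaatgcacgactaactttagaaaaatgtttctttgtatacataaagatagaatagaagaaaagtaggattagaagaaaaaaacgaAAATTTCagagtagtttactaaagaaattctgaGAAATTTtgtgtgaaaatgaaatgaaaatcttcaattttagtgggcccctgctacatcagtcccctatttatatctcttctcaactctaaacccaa
The same element occurs once before CBP60A (chr5:25113698-25113947, plus strand), 78 bases from the start, and not within 1000 bases of SARD1 or CBP60G.
CBP60A: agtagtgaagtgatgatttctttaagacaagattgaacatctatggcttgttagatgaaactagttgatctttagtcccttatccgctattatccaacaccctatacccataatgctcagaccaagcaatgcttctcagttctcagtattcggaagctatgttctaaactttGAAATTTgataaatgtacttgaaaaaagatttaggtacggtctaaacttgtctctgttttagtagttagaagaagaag
These letters are common: of 27443 annotated promoters of 250 bases, 44.9% hold TTGAC, 18.6% hold TGACG, 12.5% hold GAAATTT and 6.87% hold ACGCG. Within 1000 bases the shares are 88.1%, 54.1%, 38.3% and 20.7%. A match is a description of the sequence and not a bound site.

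Each library held 19273912 to 24572145 gene counts and the 3 regulators had 149 to 6652 counts each. For SARD1 in eds1-2, at 213 to 293 counts, counting error alone (5.84% to 6.85% of a level) was close to the spread between pools (an SD of 7.76% of the mean). In R493A, at 149 to 205 counts, counting error was 6.98% to 8.19% of a level. EDS1 itself was at 3.81 to 4.09 CPM (library-scaled read counts, with library sizes adjusted by the TMM method) in eds1-2 and at 19.4 to 31.1 CPM in R493A. It was at 23.2 to 72.0 CPM in Col-0 and at 111 to 196 CPM in w.tEDS1. Col-0 replicates 1 and 2, the libraries of sequencing lane 6, stood apart from the other 10 on the first principal component of all genes, which held 41.7% of the variance. No other genotype was sequenced in that lane, so lane and genotype cannot be told apart for them. Main differences from Col-0 are therefore also given with both left out. Lane 8 held only eds1-2 replicate 3 and R493A replicate 3. A second sequencing run held only eds1-2 replicate 1 and R493A replicate 2. All libraries of w.tEDS1 were in lane 7, with Col-0 replicate 3, eds1-2 replicate 2 and R493A replicate 1. In the comparisons with w.tEDS1, lane and genotype can thus be told apart only in part, also with lane 6 left out. Differences were tested with edgeR's quasi-likelihood test over all 18770 genes kept, and a gene is called where its Benjamini-Hochberg adjusted p is under 0.05. Changes are given in log2 units, with the standard error (SE) of each called change.

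SARD1, which lies on chromosome 1 at 27744790 to 27749248 (TAIR10.1, minus strand), was the regulator that followed the EDS1 genotype. Its level in Col-0 was 101, 208 and 59.5 CPM in replicates 1, 2 and 3. In w.tEDS1 it was 55.7, 119 and 58.0 CPM. All 6 of these libraries were above 50 CPM, with 1 high library in each genotype. In eds1-2, SARD1 was at 11.5, 9.98 and 10.2 CPM. In R493A it was at 9.08, 7.65 and 7.67 CPM. The highest library of eds1-2 and R493A, at 11.5 CPM, lay far below the lowest with wild-type EDS1, at 55.7 CPM. The means were 123 ± 76.4 CPM in Col-0, 77.7 ± 36.0 CPM in w.tEDS1, 10.6 ± 0.820 CPM in eds1-2 and 8.13 ± 0.818 CPM in R493A (SD, n = 3 each).

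**Figure D1:**
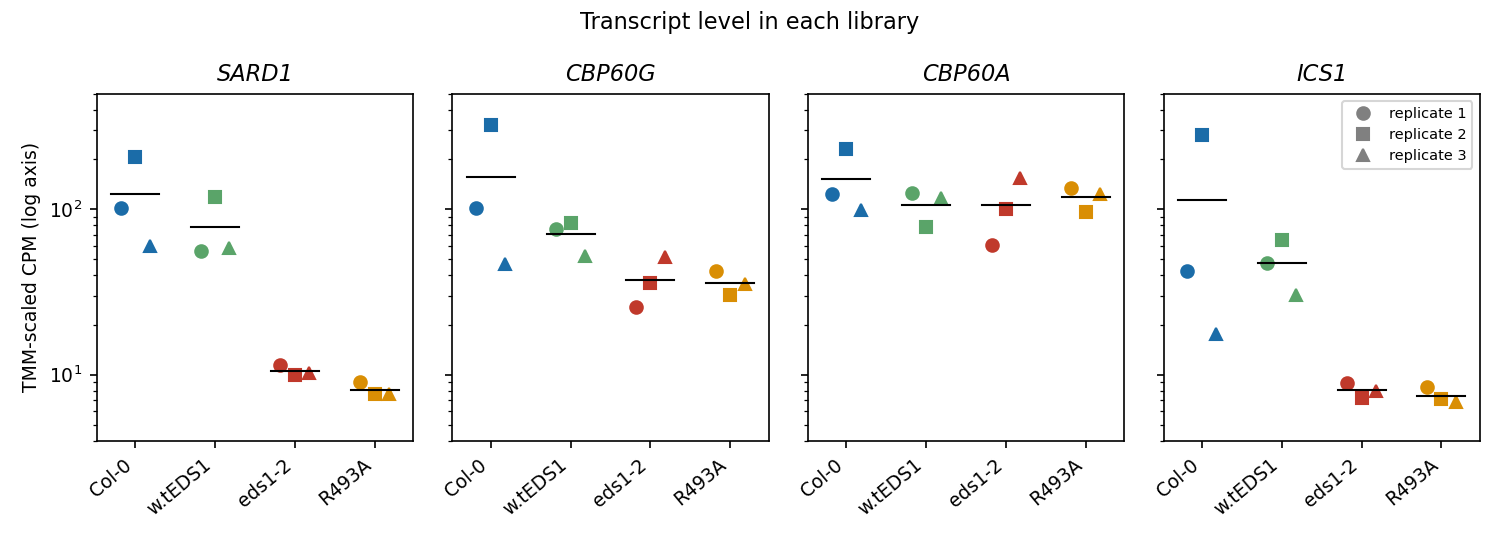
Level of SARD1, CBP60G, CBP60A and ICS1 in each of the 12 libraries, as TMM-scaled CPM on a log axis; points are libraries, shapes are replicate numbers and black bars are means of 3. SARD1 and ICS1 are low in all 6 libraries of eds1-2 and R493A, CBP60G overlaps between Col-0 and eds1-2, and CBP60A overlaps between all genotypes.

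SARD1 fell in eds1-2 against Col-0 by 3.54 on the log2 scale (SE 0.44, 95% interval -4.50 to -2.58, adjusted p = 0.00218), which is 11.6-fold. In that comparison 2.04% of all genes were called, and 1.44% were called lower. SARD1 was the only 1 of the 3 regulators called. With both lane 6 libraries left out, which leaves Col-0 replicate 3 alone and assumes that it varies like the other groups, it fell by 2.48 (adjusted p = 0.0182). With the lane as a term in the model the difference was -2.51 (adjusted p = 0.974), and within lane 7 alone, which holds 1 library of Col-0 and of eds1-2, it was -2.59 (adjusted p = 0.996).

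SARD1 was higher in w.tEDS1 than in eds1-2 by 2.88 log2 units (SE 0.43, 95% interval 1.94 to 3.81, adjusted p = 0.0368), or 7.35-fold. This was a comparison in which 0.0746% of all genes were called. The call was lost without Col-0 replicate 1, w.tEDS1 replicate 2 or 3, or any library of eds1-2 or R493A, with values of 2.43 to 3.06 and adjusted p-values of 0.0611 to 0.367. Without the lane 6 libraries the value was 2.87 (adjusted p = 0.00368).

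In R493A, SARD1 fell against w.tEDS1 by 3.25 on the log2 scale (SE 0.44, 95% interval -4.21 to -2.30, adjusted p = 0.0154), or 9.54-fold, where 0.224% of all genes were called. The call was lost without R493A replicate 1, 2 or 3, where the adjusted p was 0.117 to 0.13 with the value between -3.44 and -2.80, the range over all single libraries left out. Against Col-0 it fell by 3.92 (SE 0.45, adjusted p = 0.00113), where 1.77% of all genes were called, and by 2.86 without the lane 6 libraries (adjusted p = 0.00724). Within lane 7 alone these differences were -3.11 (adjusted p = 0.549) and -2.72 (adjusted p = 0.937). These comparisons share libraries and are not independent of each other. R493A and w.tEDS1 also differed in the transcript level of EDS1, at 19.4 to 31.1 CPM and at 111 to 196 CPM. The part of that gap in the SARD1 difference between them was not tested.

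Between the 2 genotypes with low SARD1, the 3 R493A libraries lay below the 3 eds1-2 libraries, with a log2 difference of -0.38 (95% interval -1.29 to 0.53, adjusted p = 1). A gap between these groups in the same direction was found for 3.89% of all genes, and 0.0373% were called. The order of SARD1 levels was thus Col-0, w.tEDS1, eds1-2 and R493A, and neither the first pair nor the last pair of neighbours differed beyond the test's threshold. For w.tEDS1 against Col-0 the difference was -0.66 (95% interval -1.52 to 0.20, adjusted p = 0.332), where 1.09% of all genes were called, and it was 0.39 without the lane 6 libraries. The effect of R493A against w.tEDS1 and that of eds1-2 against Col-0 differed by 0.28 for SARD1 (95% interval -0.97 to 1.54, adjusted p = 0.821), and 0.16% of all genes were called in this test.

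Taking the 6 libraries with wild-type EDS1 against the 6 of eds1-2 and R493A, SARD1 was higher by 3.40 on the log2 scale (SE 0.31, 95% interval 2.72 to 4.07, adjusted p = 0.000339), or 10.5-fold. The groups did not overlap, which was so in this direction for 1.11% of all genes, and 1.08% of all genes were called higher (1.17% in either direction). With any 1 library left out the value stayed within 3.09 to 3.56 and was called (highest adjusted p 0.00326). It was 2.86 without lane 6 (adjusted p = 0.000449) and 2.85 within lane 7 alone (adjusted p = 0.29).

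CBP60G, on chromosome 5 at 9475679 to 9478777 (plus strand), had lower mean levels in eds1-2 and R493A, as SARD1 did, but was called in no comparison. Its level was 102, 324 and 46.8 CPM in Col-0 replicates 1, 2 and 3. In w.tEDS1 it was 76.4, 83.1 and 52.1 CPM. The eds1-2 libraries had 25.5, 35.7 and 51.6 CPM, and the highest of these lies above the lowest Col-0 library. R493A had 42.2, 30.2 and 35.4 CPM. The means were 157 ± 147 CPM, 70.5 ± 16.3 CPM, 37.6 ± 13.1 CPM and 36.0 ± 6.02 CPM in Col-0, w.tEDS1, eds1-2 and R493A (SD, n = 3 each), and in Col-0 the highest library had 6.92 times the level of the lowest.

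The log2 difference of CBP60G between eds1-2 and Col-0 was -2.07 (SE 0.56, 95% interval -3.29 to -0.85, adjusted p = 0.0718). Between R493A and Col-0 it was -2.13 (SE 0.56, 95% interval -3.35 to -0.91, adjusted p = 0.076). The R493A libraries all lay below those of Col-0, which was so for 10.6% of all genes. Between w.tEDS1 and eds1-2 it was 0.91 (95% interval -0.28 to 2.10, adjusted p = 1), and between R493A and w.tEDS1 it was -0.97 (95% interval -2.16 to 0.22, adjusted p = 0.999). In both of these the w.tEDS1 libraries lay above the others without overlap, as for 5.09% and 7.68% of all genes. The difference between R493A and eds1-2 was -0.06, with an interval of -1.25 to 1.12.

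Over 6 libraries against 6, CBP60G differed by 1.52 on the log2 scale (SE 0.39, 95% interval 0.67 to 2.37, adjusted p = 0.109), and the highest eds1-2 library lay above the lowest Col-0 library. The values against Col-0 rest on its spread: without Col-0 replicate 2 the difference of eds1-2 was -0.98, and without lane 6 it was -0.30 (adjusted p = 0.851). For R493A the difference without lane 6 was -0.37 (adjusted p = 0.82). Without Col-0 replicate 3, the lowest of its group, CBP60G was called in eds1-2 against Col-0 (-2.49, adjusted p = 0.00677) and in R493A against Col-0 (-2.56, adjusted p = 0.006). DESeq2 called it in the same comparisons with all libraries, with adjusted p-values of 0.0033 and 0.00242.

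CBP60A, on chromosome 5 at 25113948 to 25117314 (plus strand), had similar levels in all genotypes. In replicate order, Col-0 had 124, 233 and 98.7 CPM and w.tEDS1 had 124, 78.2 and 117 CPM. The eds1-2 libraries had 60.9, 100.3 and 155 CPM and those of R493A had 134, 95.7 and 124 CPM. Every genotype overlapped every other, and the means were 152 ± 71.2 CPM, 107 ± 24.8 CPM, 106 ± 47.5 CPM and 118 ± 19.9 CPM (SD, n = 3 each). The log2 difference was -0.52 in eds1-2 against Col-0 (95% interval -1.32 to 0.27, adjusted p = 0.408) and -0.36 in R493A against Col-0 (adjusted p = 0.611). Over 6 libraries against 6 it was 0.19, with a 95% interval of -0.37 to 0.75 (adjusted p = 0.847), an interval that stays within 1 log2 unit of no difference. The sign of the differences from Col-0 turned when the lane 6 libraries were left out, to 0.11 in eds1-2 and 0.27 in R493A.

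**Figure D2:**
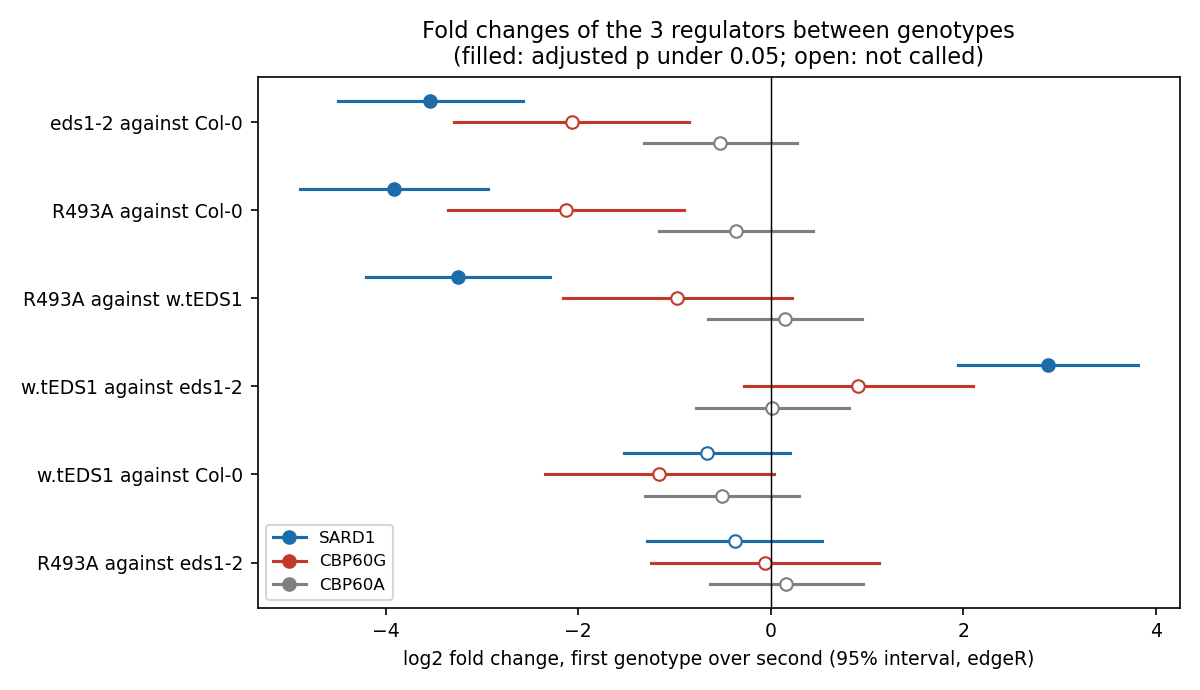
Log2 fold changes of SARD1, CBP60G and CBP60A in the 6 pairs of genotypes, with 95% intervals from the edgeR fit; filled points were called at an adjusted p under 0.05 and open points were not. SARD1 alone is filled, in the 4 pairs that set a genotype with wild-type EDS1 against eds1-2 or R493A, from -3.92 to 2.88.

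The spread between pools differed by gene and genotype. In Col-0 the SD of log2 CPM was 0.90 for SARD1, 1.40 for CBP60G and 0.64 for CBP60A, above that of 92.8%, 98.5% and 83.6% of all genes, whose median was 0.31. In eds1-2 it was 0.11 for SARD1, below the median of 0.22, but 0.51 for CBP60G and 0.68 for CBP60A. The lowest CBP60G and CBP60A values of eds1-2 and of R493A were in the libraries of the second sequencing run, eds1-2 replicate 1 and R493A replicate 2. SARD1 was highest of its group in that eds1-2 library. In that R493A library it was lowest, at 7.65 CPM beside 7.67 CPM in R493A replicate 3. Differences between genotypes were also fitted with the run as a term and in the main run alone. The part of the run in the values of these single libraries was not tested, with 1 such library in a genotype.

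Because the 3 genes are read in the same library, their ratios do not depend on how libraries were scaled. The log2 ratio of SARD1 to CBP60G counts was -0.01 ± 0.454 over the 6 libraries of Col-0 and w.tEDS1, within -0.64 to 0.52. Over the 6 libraries of eds1-2 and R493A it was -1.95 ± 0.434, within -2.33 to -1.15 (SD, n = 6). The 2 sets did not overlap, and SARD1 was 3.84-fold lower relative to CBP60G in the latter (exact two-sided permutation test, p = 0.00216). Relative to CBP60A, SARD1 was 8.42-fold lower, from -0.46 ± 0.652 to -3.53 ± 0.606 on the log2 scale (n = 6, exact permutation p = 0.00216).

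The ratio of CBP60G to CBP60A separated the same libraries. It was -0.44 ± 0.655, within -1.17 to 0.48, with wild-type EDS1 and -1.58 ± 0.189, within -1.80 to -1.26, in eds1-2 and R493A (SD, n = 6). The 2 sets did not overlap and CBP60G was 2.19-fold lower relative to CBP60A (exact permutation p = 0.00216), although its own level had not been called. For all 3 ratios this p is the smallest that 6 libraries against 6 allow, and adjustment over the 3 ratios leaves it unchanged. Ratios of other genes were not computed, so the share of genes that would separate the same libraries in this way is not known. The 2 sets also differ in lane and run, which the permutation test does not take into account. It shuffles libraries freely between the sets, although each set is 2 genotypes with 3 libraries each. Its p thus treats libraries of a genotype as independent units and does not measure the spread between genotypes. Between 2 genotypes, where 3 libraries against 3 cannot go below p = 0.1, the ratio of SARD1 to CBP60G differed by 0.17 on the log2 scale between w.tEDS1 and Col-0 (exact permutation p = 0.7) and by -0.36 between R493A and eds1-2 (exact permutation p = 0.4).

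**Figure D3:**
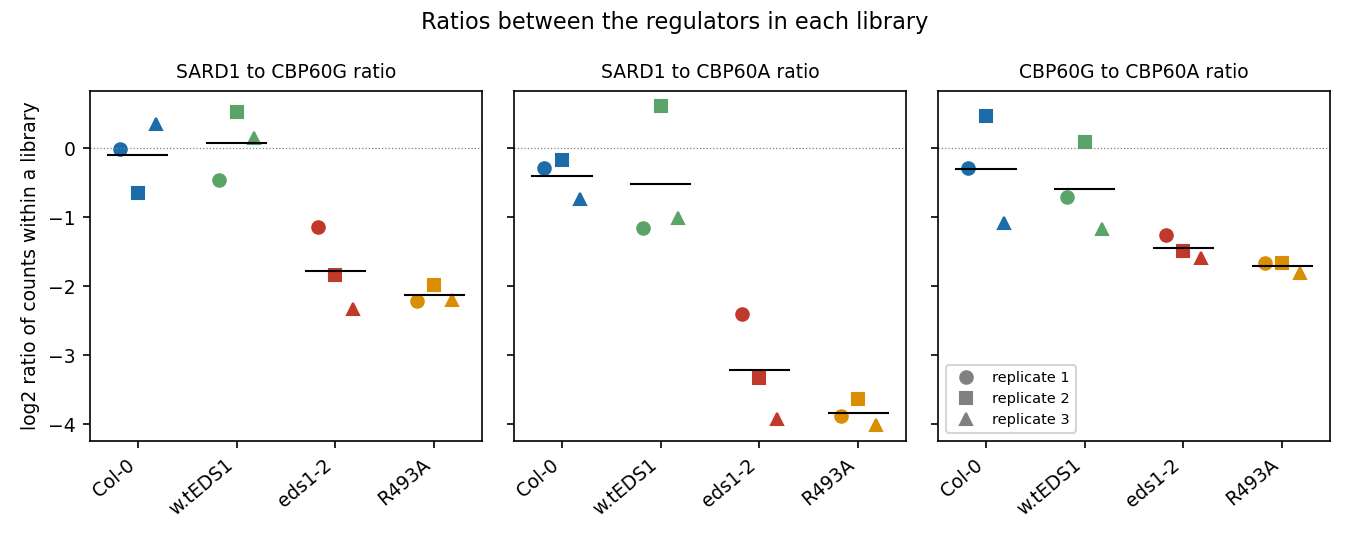
Log2 ratio of read counts between each pair of the 3 regulators in every library; points are libraries, shapes are replicate numbers and black bars are means of 3. In each panel the 6 libraries of eds1-2 and R493A lie below the 6 of Col-0 and w.tEDS1 without overlap, by 1.94, 3.07 and 1.13 on average.

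Set on a scale per kilobase of exon (lengths from TAIR10.1, which may differ from the annotation the authors counted on), SARD1 was the lowest of the 3 genes in eds1-2 and R493A, while the 3 lay close together with wild-type EDS1. In Col-0 the mean levels were 68.2 CPM per kb for CBP60G, 51.3 CPM per kb for SARD1 and 50.9 CPM per kb for CBP60A, and these overlap between libraries. Without Col-0 replicate 2 they were 32.2, 33.6 and 37.3 CPM per kb, so the place of CBP60G as highest rests on that library. In w.tEDS1 they were 30.6, 32.4 and 35.7 CPM per kb in the same order. In eds1-2, CBP60A led with 35.4 CPM per kb, ahead of CBP60G with 16.3 CPM per kb and SARD1 with 4.41 CPM per kb. R493A had the same order, with 39.5, 15.6 and 3.39 CPM per kb.

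The other 5 CBP60 genes, CBP60B to CBP60F, were all tested and none was called in any of the comparisons. Their median log2 difference was -0.08 in eds1-2 against Col-0 and 0.11 in R493A against w.tEDS1, beside -0.01 and 0.01 over all genes. CBP60B, like SARD1 and CBP60G a positive regulator of immunity, had 97.5, 125 and 66.1 CPM in the Col-0 libraries and 78.7, 87.9 and 81.6 CPM in those of w.tEDS1. It was at 68.1, 67.8 and 76.4 CPM in eds1-2 and at 65.1, 65.3 and 62.1 CPM in R493A. The w.tEDS1 libraries were all above those of eds1-2 and R493A, as for 5.09% and 7.68% of all genes, with log2 differences of 0.23 for w.tEDS1 against eds1-2 (adjusted p = 1) and -0.37 for R493A against w.tEDS1 (adjusted p = 0.999). The lowest Col-0 library lay below all of eds1-2. Over 6 against 6 the difference was 0.40 (adjusted p = 0.213). In R493A against Col-0 it was -0.58 (adjusted p = 0.116), and -0.03 without lane 6. Without Col-0 replicate 3, CBP60B was called in eds1-2 (-0.64, adjusted p = 0.0102) and in R493A (-0.79, adjusted p = 0.00408) against Col-0. It was then also called over 6 against 6 (0.50, adjusted p = 0.00692). DESeq2 called it in R493A against Col-0 with all libraries (-0.59, adjusted p = 0.0477). CBP60C had means of 79.7 to 89.8 CPM and CBP60F of 42.5 to 48.4 CPM over the genotypes. CBP60D, at 2.21 to 3.51 CPM, and CBP60E, at 0.622 to 0.780 CPM, were near the lower end of what was tested.

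**Figure D4:**
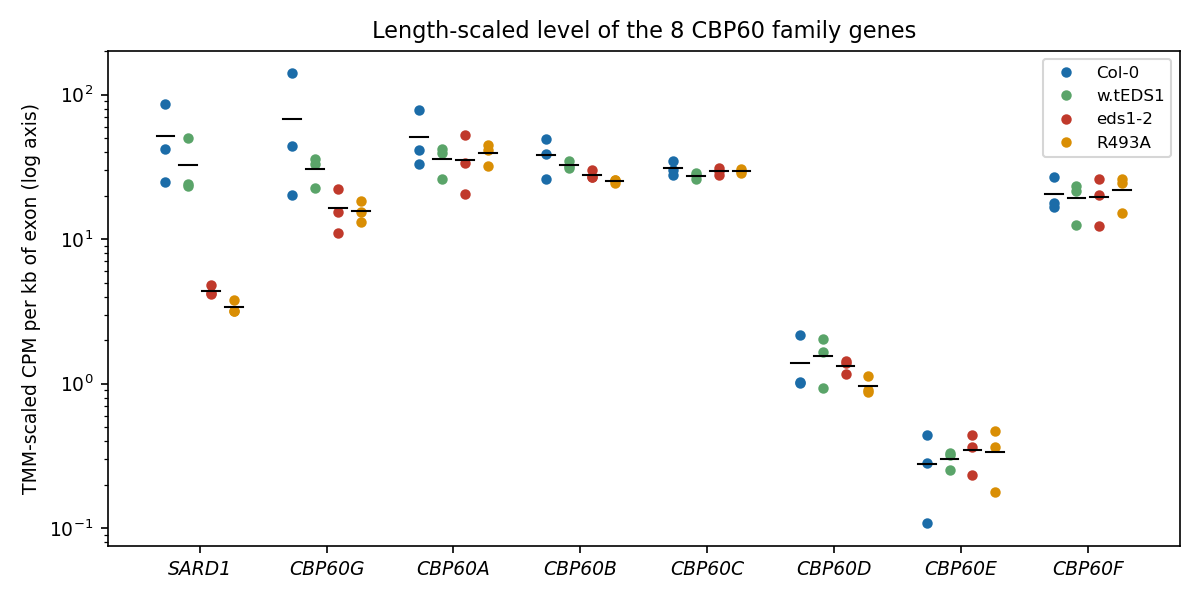
Level of the 8 CBP60 family genes per kilobase of exon in each library, as TMM-scaled CPM per kb on a log axis; coloured points are libraries of the 4 genotypes and black bars are means of 3. SARD1 has the widest gap between genotypes, from 51.3 CPM per kb in Col-0 to 3.39 CPM per kb in R493A, and CBP60D and CBP60E lie lowest.

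ICS1, the shared target, lies 321 kb from SARD1 on the same chromosome. Its level was 42.1, 279 and 17.7 CPM in the Col-0 libraries, in replicate order, and 47.0, 64.8 and 30.4 CPM in w.tEDS1. In eds1-2 it was at 8.87, 7.27 and 8.0 CPM and in R493A at 8.41, 7.14 and 6.79 CPM. No library of eds1-2 or R493A overlapped those with wild-type EDS1, as for SARD1, and Col-0 replicate 2 had 15.8 times the level of Col-0 replicate 3. ICS1 fell by 3.81 on the log2 scale in eds1-2 against Col-0 (adjusted p = 0.0416) and by 3.92 in R493A against Col-0 (adjusted p = 0.0389). Without Col-0 replicate 2 these were -1.90 (adjusted p = 0.0437) and -2.01 (adjusted p = 0.0306), and without lane 6 they were -1.12 and -1.24 and neither was called. The first was lost without any 1 of the other libraries except Col-0 replicate 3, and the second without any library of w.tEDS1, eds1-2 or R493A, with adjusted p-values up to 0.176. It was not called in R493A against w.tEDS1 (-2.67, adjusted p = 0.496) or in w.tEDS1 against eds1-2 (2.56, adjusted p = 0.986) with all 12 libraries. At nearly the same values both were called when the 6 libraries of the pair were fitted alone (adjusted p = 0.00889 and 0.0326), without Col-0 replicate 2 (adjusted p = 0.00997 and 0.0209) and without lane 6 (adjusted p = 0.0021 and 0.00368). Over 6 against 6 ICS1 was higher by 3.24 (adjusted p = 0.0185), and this call was lost without any 1 library of eds1-2 or R493A (adjusted p up to 0.0809).

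Of the 4 genes of the isochorismate route, ICS1 and PBS3, whose product conjugates isochorismate to glutamate, were called lower in eds1-2 and in R493A against Col-0, and both were called higher over 6 against 6. The shares of all genes called in either direction were 2.04%, 1.77% and 1.17% in these comparisons. The median log2 difference of all 4 was -3.14 in eds1-2 and -3.17 in R493A against Col-0, beside -0.01 and 0.01 over all genes. The smallest differences were those of ICS2, at -0.26 and -0.16, and these turned to 0.80 and 0.89 without lane 6. PBS3 fell by 3.66 in eds1-2 (adjusted p = 0.0148) and by 4.19 in R493A (adjusted p = 0.00739). Without lane 6 these were -1.49 (adjusted p = 0.117) and -2.03 (adjusted p = 0.015). The first call was also lost without any 1 library of eds1-2, and the second without R493A replicate 2 or 3, with adjusted p-values up to 0.0909. EDS5, which exports the salicylic acid precursor from the chloroplast, differed by -2.62 (adjusted p = 0.0586) and -2.41 (adjusted p = 0.0748). Without lane 6 EDS5 differed by -0.75 (adjusted p = 0.505) and -0.54 (adjusted p = 0.641). With all 12 libraries none of the 4 was called between w.tEDS1 and eds1-2 or R493A, where the medians were 1.63 and, for R493A against w.tEDS1, -1.79. PBS3 was at 2.02 in w.tEDS1 against eds1-2 and at -2.55 in R493A against w.tEDS1, and was called in both with the 6 libraries of the pair alone (adjusted p = 0.0213 and 0.00518), without lane 6 (adjusted p = 0.00445 and 0.0018), with DESeq2 (adjusted p = 0.0438 and 0.000728) and without Col-0 replicate 3 (adjusted p = 0.0322 and 0.00905). Without Col-0 replicate 2 it was called in the second (adjusted p = 0.0303).

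Of the 3 genes of the N-hydroxypipecolic acid route, which SARD1 and CBP60G are also known to activate, ALD1 and FMO1 were called lower in both genotypes against Col-0. Over all genes, 2.04% were called in eds1-2 and 1.77% in R493A, in either direction. ALD1, the aminotransferase that starts the route, fell by 2.86 in eds1-2 (adjusted p = 0.0483) and by 3.22 in R493A (adjusted p = 0.0366). FMO1, the monooxygenase that ends it, fell by 4.82 (adjusted p = 0.0408) and 4.93 (adjusted p = 0.0391), from 1.19 to 27.6 CPM in Col-0 to at most 0.620 CPM in the other 2 genotypes. These calls rest on few libraries: in eds1-2, both were lost without any 1 library other than Col-0 replicate 3, in R493A FMO1 likewise and ALD1 without 8 of the 12 (adjusted p up to 0.181), and without lane 6 none of them was called, with ALD1 at -0.54 and -0.90 and FMO1 at -1.60 and -1.71. FMO1 was also called over 6 against 6 (3.74, adjusted p = 0.0327), and not without lane 6 (2.13, adjusted p = 0.0834), with limma-voom, with the replicate block or without any 1 of w.tEDS1 replicates 2 and 3 and the libraries of eds1-2 and R493A (adjusted p = 0.0685 to 0.113 for single libraries).

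Among 7 genes known to act upstream of SARD1 and CBP60G, WRKY70 and WRKY54, which encode WRKY factors of salicylic acid signalling, were called in the same comparisons as SARD1, in the same direction. The shares of all genes called were 2.04% in eds1-2 and 1.77% in R493A against Col-0. They were 0.0746% in w.tEDS1 against eds1-2, 0.224% in R493A against w.tEDS1 and 1.17% over 6 against 6. WRKY70 was at 380, 298 and 196 CPM in Col-0, at 153, 323 and 205 CPM in w.tEDS1, at 17.1, 28.9 and 21.0 CPM in eds1-2 and at 25.7, 16.7 and 18.2 CPM in R493A. Its log2 difference was -3.70 in eds1-2 against Col-0 (adjusted p = 0.000338), 3.34 in w.tEDS1 against eds1-2 (adjusted p = 0.00742) and -3.49 in R493A against w.tEDS1 (adjusted p = 0.0026). WRKY54 differed by -3.41 (adjusted p = 0.000932), 3.10 (adjusted p = 0.0194) and -3.33 (adjusted p = 0.00658) in these. Without lane 6 the differences of eds1-2 from Col-0 were -3.11 for WRKY70 (adjusted p = 0.00794) and -2.90 for WRKY54 (adjusted p = 0.0133). In w.tEDS1 against eds1-2, the WRKY70 call was lost without eds1-2 replicate 1 or 3 and that of WRKY54 without any library of eds1-2 or R493A replicate 3, with adjusted p-values up to 0.173. In R493A against w.tEDS1 the WRKY54 call was lost without R493A replicate 3 (adjusted p = 0.0702). With the lane as a term, neither gene was called in any of these comparisons. The differences of eds1-2 from Col-0 were then -2.75 for WRKY70 and -2.66 for WRKY54, and -2.77 and -2.63 within lane 7 alone. Within the main run alone, both lost their call in w.tEDS1 against eds1-2 (adjusted p = 0.168 and 0.243).

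The TGA factors TGA1 and TGA4, which activate SARD1 and CBP60G, and CAMTA1, CAMTA2 and CAMTA3, calmodulin-binding factors that hold both genes down in healthy leaves, were not called in any comparison. TGA1 differed by -0.65 in eds1-2 against Col-0 (adjusted p = 0.202) and CAMTA3 by -0.51 (adjusted p = 0.199), and without lane 6 these were -0.07 (adjusted p = 0.974) and 0.09 (adjusted p = 0.883). In eds1-2 against Col-0, R493A against Col-0 and over 6 against 6, 2.04%, 1.77% and 1.17% of all genes were called. Of 11 other factors reported to act on ICS1, among them TCP8, NTL9, WRKY28, EIN3 and NAC019, WRKY46 alone was called, lower in both genotypes against Col-0 and higher over 6 against 6. It fell by 2.52 in eds1-2 (adjusted p = 0.0268) and by 2.40 in R493A (adjusted p = 0.028), and by 1.42 (adjusted p = 0.265) and 1.31 (adjusted p = 0.247) without lane 6, so neither call held there. Both were also lost when 1 library of the mutant genotype concerned was left out, and the second without eds1-2 replicate 2 (highest adjusted p 0.145). Over 6 libraries against 6 the difference was 2.03 (adjusted p = 0.0116), with an adjusted p of 0.0518 without eds1-2 replicate 2. None of the 7 calmodulin genes CAM1 to CAM7 was called in any comparison. Against Col-0, their median log2 difference was -0.17 in eds1-2, -0.17 in R493A and -0.25 in w.tEDS1. The medians over all genes were -0.01, 0.01 and -0.01 in these.

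The genes whose log2 levels over the 12 libraries were most like each regulator, among 13592 genes of at least 5 CPM on average, differed between the 3. For SARD1 they were AT5G24200, an alpha/beta-hydrolase, AT3G47480 and AT5G39670, both EF-hand calcium-binding proteins, AT3G60420, of the phosphoglycerate mutase family, and SIB1, with Pearson's r of 0.982 to 0.979. For CBP60G they were XBAT34 and AT1G10340, both ankyrin-repeat proteins, AT3G04220 and AT1G63350, both NBS-LRR receptors, and EDA39, a calmodulin-binding protein, with r of 0.984 to 0.981. For CBP60A they were AT3G60260 (an ELMO domain protein), AT4G32020, AT5G24590 (the NAC factor TIP), AT1G08800 (a myosin-binding protein) and AT3G52800 (a zinc finger protein). Their r was 0.989 to 0.980. After the genotype means were taken out, r was 0.789 to 0.903 for the SARD1 set, 0.959 to 0.979 for the CBP60G set and 0.979 to 0.993 for the CBP60A set. The 3 libraries of a genotype share it, and the lists depend on Col-0 replicate 2, since without that library 1, 2 and 1 of the 5 genes stayed among the first 5. With Spearman's correlation in place of Pearson's, 0 of the 5 stayed for each of the 3 regulators.

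SARD1 had an r of 0.943 with ICS1 and 0.836 with CBP60G over the 12 libraries. CBP60G had 0.933 with ICS1, 0.974 with EDS5 and 0.944 with CBP60B. CBP60A had 0.436 with ICS1 and 0.277 with SARD1, and -0.06 and -0.09 without Col-0 replicate 2. These are descriptions of 12 libraries in 4 genotypes and were not tested.

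The annotated 3′ end of SARD1 overlaps GIP2 on the opposite strand by 640 bases. Without a strand in the library kit, reads there cannot be told apart. GIP2 had 111 to 194 counts per library, beside 149 to 293 counts of SARD1 in the libraries of eds1-2 and R493A, and the part of the overlap in those values was not tested. CBP60A overlaps AT5G62573 by 246 bases on the opposite strand, a gene not used here. In a window of 250 kb on each side of SARD1, 4 of 117 tested genes were called in eds1-2 against Col-0 and none in the comparisons between w.tEDS1 and eds1-2 or R493A. Around CBP60G these were 2, 1 and 1 of 66, and around CBP60A 3, 0 and 0 of 104. The shares over all genes were 2.04%, 0.0746% and 0.224% in these comparisons.

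Markers of the leaf's cell types were present in all libraries. The summed level of 6 mesophyll markers was 24382 to 34675 CPM in Col-0, 36323 to 39748 CPM in w.tEDS1, 36534 to 40499 CPM in eds1-2 and 32057 to 36781 CPM in R493A, and RBCS1B, a small subunit of Rubisco, was called higher in each of these 3 genotypes than in Col-0 (in eds1-2 by 0.77, adjusted p = 0.0197, and without lane 6 by 0.57, adjusted p = 0.392). Against Col-0, 2.04% of all genes were called in eds1-2, 1.77% in R493A and 1.09% in w.tEDS1. The summed level of 6 guard cell markers (57.7 to 138 CPM) overlapped between all genotypes. That of 5 phloem markers (326 to 470 CPM) did so too, except that eds1-2 (401 to 415 CPM) lay above R493A (368 to 389 CPM). None of these 11 markers was called in any comparison. No marker was at 0 in any library. The part of cell makeup in the differences of SARD1 was not tested, and in whole leaves fewer cells of a type and less RNA per cell cannot be told apart.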

How the data were processed

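Leaf poly(A) RNA of 12 libraries was analysed, with groups taken from the labels. Per the labels' protocols, an RNeasy kit and the TruSeq v2 kit were used, and the latter leaves the strand of a read unknown. The authors deposited raw counts of reads by gene, on TAIR10 per the submitters' processing notes. Those notes also name TopHat2, HTSeq and limma, and settings are not given in the sources used here. The 5 summary entries, which name no gene, took 9.69% to 22.9% of a column and were left out. No 2 libraries were alike (at least 21232 genes differed in any pair). Gene counts of 19273912 to 24572145 per library limit counting error only.

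Genes were filtered with filterByExpr (18770 of 32678 kept) and scaled by TMM in edgeR 4.0.16 under R 4.3.3. The quasi-likelihood model had the genotype as sole term and used all 12 libraries. It tested 6 pairs of genotypes, the 6 libraries of Col-0 and w.tEDS1 against the 6 of eds1-2 and R493A, and the difference between the R493A and eds1-2 effects. Benjamini-Hochberg adjustment ran over the 18770 genes, and calls are at an adjusted p under 0.05. The SE is the log2 fold change divided by the square root of the F statistic. Ratios used counts plus 0.5 and exact permutation tests. The code was tested on simulated data.

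The 3 genes and all gene lists were chosen with earlier results of these data known, so none is independent evidence. Named are the 3 regulators, the 5 other CBP60 genes, ICS1, EDS1 as the gene that the lines differ in, up to 3 called members of each list and the 5 genes most like each regulator. TGA1, CAMTA3, EDS5 and ICS2 were named after their values were seen. One identifier planned for the isochorismate list belonged to another gene and was dropped. Coordinates, lengths, symbols and sequences are those of RefSeq on TAIR10.1, where 31912 of 32678 identifiers were found. Protein sequences were not used here.

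Replicate numbers were shared between genotypes, but deviations of same-numbered libraries correlated from -0.51 to 0.38, with 4 of 18 pairs over 0.1, so they were not treated as pairs. Alternatives were DESeq2 size factors, no filter, DESeq2 1.42.0, limma-voom 3.58.1, a replicate block, the run or lane as a term, the main run or its lane 7 alone, fits to only the pair compared, single libraries left out and, chosen after seeing the data, lane 6 left out.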

Additional observations from a re-analysis of the deposited data

How the results depend on the processing

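The differences of the 3 regulators gave 546 values under alternatives. Of these, 470 kept direction and side of the threshold, 27 lost a call, 7 gained one and 42 turned sign, the last all in differences that were not called. The causes were not tested, and fits with fewer libraries or more terms also have fewer degrees of freedom. The 3 ratios separate the sets without overlap, so leaving out libraries holds p at the smallest it can be and says nothing on stability. Over 15 alternatives each, the differences were 1.83 to 2.14 for SARD1 to CBP60G, 2.86 to 3.33 for SARD1 to CBP60A and 0.86 to 1.28 for CBP60G to CBP60A, and lane or run as a term was not run for them. The number of genes called over all 18770 moved by over 1.5 times under most settings: from 383 to between 10 and 3338 in eds1-2 against Col-0, from 14 to between 0 and 84 in w.tEDS1 against eds1-2, and from 42 to between 2 and 155 in R493A against w.tEDS1.

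SARD1 lost its call with the lane as a term, at -2.51 in eds1-2 against Col-0, 2.89 in w.tEDS1 against eds1-2, -3.16 in R493A against w.tEDS1, -2.78 in R493A against Col-0 and 2.84 over 6 against 6 libraries. Within lane 7 alone the same differences were -2.59, 2.97, -3.11, -2.72 and 2.85, again without a call. Within the main run alone, w.tEDS1 against eds1-2 was 2.94 and R493A against w.tEDS1 was -3.21, both uncalled. W.tEDS1 against eds1-2 also lost its call with limma-voom (2.78) and with the run as a term (2.89). CBP60G gained a call with DESeq2 at -2.08 in eds1-2 against Col-0, -2.14 in R493A against Col-0 and 1.52 over 6 against 6.

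Signs turned mostly where Col-0 was represented by its lane 7 library. In w.tEDS1 against Col-0, the differences with the lane as a term, within lane 7 and without lane 6 were 0.38, 0.38 and 0.39 for SARD1, 0.59, 0.59 and 0.60 for CBP60G and 0.11, 0.11 and 0.12 for CBP60A. In eds1-2 against Col-0 they were 0.22, 0.010 and 0.11 for CBP60A and 0.098, 0.024 and 0.11 for CBP60B. In R493A against Col-0 they were 0.27, 0.43 and 0.27 for CBP60A. For the difference between the R493A and eds1-2 effects they were -0.66, -0.52 and -0.78 for SARD1, -0.74, -0.35 and -0.67 for CBP60G and, with the lane as a term, -0.064 for CBP60A. Over 6 against 6, CBP60A was -0.19, -0.17 and -0.13 in these settings, -0.018 with the run as a term and -0.019 in the main run alone. In w.tEDS1 against eds1-2, CBP60A was -0.16 with the run as a term, -0.27 in the main run alone and -0.11 with the lane as a term. In R493A against eds1-2, CBP60G was 0.24 within lane 7.

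With each library left out in turn, SARD1 ranged over 2.43 to 3.06 in w.tEDS1 against eds1-2, -3.44 to -2.80 in R493A against w.tEDS1 and -0.33 to 0.73 for the difference of effects. CBP60G ranged over -2.49 to -0.98 in eds1-2 against Col-0, -0.28 to 0.23 in R493A against eds1-2, -1.59 to -0.078 in w.tEDS1 against Col-0, -2.56 to -1.05 in R493A against Col-0 and 0.98 to 1.73 over 6 against 6. CBP60A ranged over -0.26 to 0.40 in w.tEDS1 against eds1-2, -0.034 to 0.28 in R493A against w.tEDS1, -0.12 to 0.55 in R493A against eds1-2, -0.59 to 0.080 in R493A against Col-0 and -0.036 to 0.37 over 6 against 6. CBP60G was called in eds1-2, w.tEDS1 and R493A against Col-0 and over 6 against 6 without Col-0 replicate 3, and in no such fit otherwise. The 5 other CBP60 genes stayed uncalled except for 1 gene without Col-0 replicate 3 and, in R493A against Col-0, 1 with DESeq2.

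The replicate numbers do not pair the libraries by the correlations of their deviations. With the replicate block, SARD1 in w.tEDS1 against eds1-2 was 2.77 (adjusted p = 0.0559), and no other call of the 3 regulators changed. The block moved the number of genes called from 383 to 132 in eds1-2 against Col-0, from 14 to 6 in w.tEDS1 against eds1-2, from 42 to 15 in R493A against w.tEDS1 and from 333 to 159 in R493A against Col-0.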
